A study of Rattus norvegicus with 16 samples.

Results

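The collagen genes encode the alpha chains of the collagens, the main structural proteins of the extracellular matrix. The members were all probes whose RefSeq transcript belongs to a gene with a symbol of the form Col, number, a, number, and for each gene the probe with the highest mean signal in a tissue was used. This gave 23 collagen genes on 31 probes, out of 16678 genes named in this way on 45598 probes. Of the 44 collagen genes in the gene table used for naming, 21 were not matched to a probe here, among them Col4a2, Col4a3, Col5a2, Col6a1 and Col6a3. The members were read as 8 fibrillar collagens, 5 collagens of or next to the basement membrane, and 10 others.

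Fibrillar collagens such as types I, III and V assemble into the fibrils that give tissue its tensile strength, and fibroblasts make most of them. Type IV collagen forms the network of the basement membrane under epithelia, around vessels and around each adipocyte, and types XV and XVIII lie beside it. Types II, IX and XI are the collagens of cartilage, which supports the large airways. In asthma, collagen deposited beneath the airway epithelium is a known part of airway remodeling, and in adipose tissue collagens VI and XV belong to the matrix that surrounds fat cells.

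Lung and adipose tissue came from 8 male Brown Norway rats, which entered the protocol at 7 weeks of age, with 1 array for each rat and tissue and 50 ng of RNA per array. The 5 HDM rats were sensitized subcutaneously with 45 µg of house dust mite (HDM) extract in aluminum hydroxide, given 1 time per week for 3 weeks, and then challenged intranasally with 120 µg of HDM 3 times per week for 3 weeks. The 3 control rats received saline in aluminum hydroxide and then saline by the nose, so both groups carried the adjuvant. The fat depot is not given in the sources used here. All values are log2 signals relative to the 75th percentile of the array, so that 0 is the signal of the 75th percentile probe and negative values lie below it, and levels of different probes are not compared.

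The 75th percentile signal ran from 376 to 488 in lung and from 111 to 240 in adipose tissue, and each array had between 51.0% and 68.8% of its probes well above background. The log2 of the summed signal of 6 lung epithelial markers ran from 10.49 to 10.78 in lung (2.07 to 4.79 in adipose tissue), and that of 6 adipocyte markers from 9.54 to 10.53 in adipose tissue (1.82 to 3.78 in lung). In adipose tissue, HDM rat 1 and control rat 1 stood apart, with summed epididymis and testis markers of 11.46 and 11.81, against at most 4.86 in the other 6 rats. The HDM rat 2 adipose array had 1224 outlier spots, against between 355 and 444 on the other adipose arrays. All lung arrays lay on 1 slide and all adipose arrays on another, so tissue and slide cannot be told apart. On each slide, HDM rats 1 to 4 were in the first row and HDM rat 5 lay in the second row with the 3 control rats.

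A short stretch of promoter is shown for the collagen genes on which the results below turn and whose window held a CCAAT box, an element common in collagen promoters. The letters CCAAT, or ATTGG for the other strand, were searched in the 250 bases before the RefSeq start site (assembly GRCr8). They were present in 5 of the 18 members with a promoter window (27.8%), against 34.0% of all 33469 windows. Members were counted as genes, with a match in any of their windows, while the share over all is by window. By class they were in 3 of 5 fibrillar members, 1 of 5 basement membrane members and 1 of 8 others. The letters TATAAA, or TTTATA, were in 2 of the 18 members, against 12.9% of all windows. The capitals mark the CCAAT or ATTGG letters, and each sequence is written 5′ to 3′ on the strand of the gene.
Col1a2 (chr4:33518318-33518358, plus strand): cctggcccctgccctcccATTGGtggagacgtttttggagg
Col5a3 (chr8:27626108-27626148, minus strand): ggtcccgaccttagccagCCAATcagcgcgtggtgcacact
Col4a1 (chr16:84885409-84885449, plus strand): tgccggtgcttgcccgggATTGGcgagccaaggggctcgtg
Col11a1 (chr2:204509041-204509081, plus strand): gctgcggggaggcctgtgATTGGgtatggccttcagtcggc
The match in Col1a2 starts 221 bases before the start site, that in Col5a3 182 bases, that in Col4a1 170 bases and the one shown for Col11a1 77 bases. These matches describe the letters of the windows, and binding at them was not measured here.

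The first comparison asked whether collagen genes were changed in the lungs of allergic rats. None of the 23 collagen genes was differentially expressed in the lungs of HDM rats compared with control rats (limma, adjusted p below 0.05 and fold change above 1.5), against 1.12% of all genes. The median log2 difference between HDM and control rats was -0.17 over the members and -0.01 over all genes. It was -0.12 for fibrillar, -0.28 for basement membrane and -0.07 for other collagens. The difference was below 0 for 15 of the 23 members, where 52.1% of all genes were below 0. The unadjusted p was below 0.05 for 2 members, Col7a1 and Col9a1, against 12.7% of all genes. The plot of differences by gene gives all members in both tissues.

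**Figure D1:**
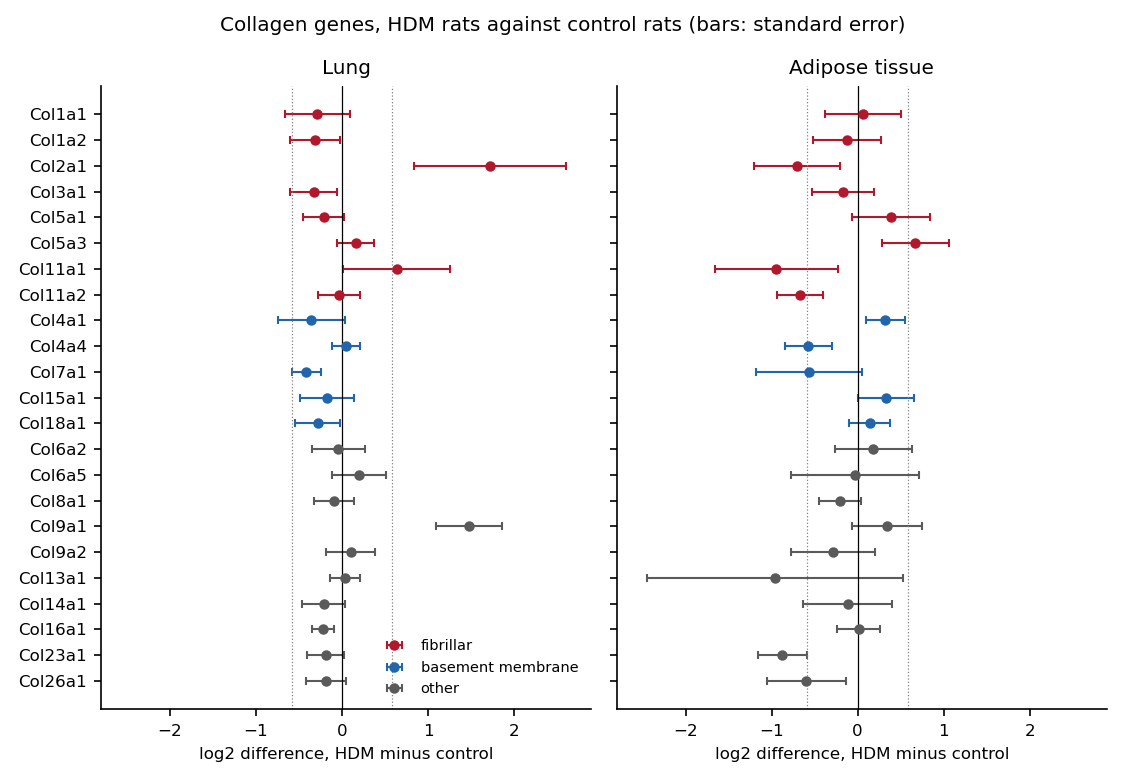
The log2 difference between HDM and control rats (horizontal axis) for each of the 23 collagen genes (vertical axis), in lung and in adipose tissue, with its standard error as a bar. The dotted lines mark a 1.5-fold change. In lung most points lie near 0 and those of Col2a1 and Col9a1 lie to the right with wide bars. In adipose tissue the points lie between -0.96 and 0.67.

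The genes of type I and III collagen, the most abundant fibrillar collagens of lung, were at similar levels in both groups except in 1 HDM rat. Col1a1 was at 3.59, 3.88, 2.30, 3.71 and 3.91 in HDM rats 1 to 5 and at 4.12, 3.59 and 3.58 in control rats 1 to 3. The value of HDM rat 3 lay below all the others, and the groups overlapped. The log2 difference was -0.29 ± 0.38 (SE), with an adjusted p of 0.935. Col1a2, the partner chain of type I collagen, was at 5.18, 5.33, 4.14, 5.38 and 5.43 in HDM rats and at 5.53, 5.36 and 5.32 in control rats. Its difference was -0.31 ± 0.29, with an adjusted p of 0.874. HDM rat 3 again had the lowest value.

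Col3a1, the chain of type III collagen, was at 4.32, 4.51, 3.39, 4.51 and 4.44 in HDM rats and at 4.82, 4.44 and 4.44 in control rats. Its difference was -0.33 ± 0.27, with an adjusted p of 0.841. Col5a1, which takes part in starting fibrils, differed by -0.21 ± 0.24, with an adjusted p of 0.909. Col5a3, a further type V chain, was at between -1.80 and -0.81 in HDM rats and between -1.59 and -1.32 in control rats. Thus all of these fibrillar members overlapped between the groups.

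HDM rat 3 was low for collagens of several classes. Relative to the median of each gene over the 8 lungs, the fibrillar members of this rat had a median of -0.95, the basement membrane members of -0.96 and the other members of -0.38, while over all genes its median was 0.08. In the remaining rats the fibrillar median lay between -0.04 and 0.27. In this lung the summed fibroblast markers were at 5.35, against between 5.65 and 5.89 in the other lungs, and the smooth muscle markers were at 5.23, against between 5.75 and 6.09. This lung also had the lowest sums of endothelium markers, 7.26, and of mesothelium markers, 3.74. Its lung epithelium sum, 10.70, was the highest of the HDM rats. Its neutrophil markers had the highest sum of all lungs, 8.07. Fewer cells of a type and less RNA per cell cannot be told apart in such bulk samples, and the part of these cell types in the collagen values was not tested. Without HDM rat 3 the median difference of the members was 0.01, and Col1a1 differed by 0.01 and Col1a2 by -0.08.

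Among the basement membrane members, Col4a1, a chain of the type IV network of most tissues, was at 3.37, 3.45, 2.34, 4.16 and 4.00 in HDM rats and at 4.07, 3.79 and 3.61 in control rats. The groups overlapped, and the difference of -0.36 ± 0.39 had an adjusted p of 0.907. Without HDM rat 3 it was -0.08. Col7a1, the anchoring fibril collagen that ties basement membranes to the stroma, was at -2.57, -2.12, -2.38, -2.08 and -2.09 in HDM rats and at -2.05, -1.88 and -1.57 in control rats. All HDM rats were below all control rats, as in 7.27% of all genes. The difference of -0.41 ± 0.17 was a 1.33-fold lower signal, with an adjusted p of 0.444. Col4a4, a chain found in alveolar basement membrane, differed by 0.05 ± 0.16, and Col15a1 and Col18a1 by -0.17 ± 0.31 and -0.28 ± 0.26, with adjusted p between 0.865 and 1.000.

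Of the collagens of cartilage, Col2a1, Col9a1, Col9a2 and Col11a1 were highest in the lungs of HDM rats 1 and 2, and Col11a2 was not. Col2a1, the fibrillar collagen of cartilage, was at -1.44, -1.27, -4.58, -4.52 and -4.17 in HDM rats 1 to 5 and at -4.83, -4.87 and -5.04 in control rats. All 5 HDM rats were above the control rats, as in 5.94% of all genes, but the other 3 HDM rats, at or below -4.17, were near the control rats and far below the first pair. The log2 difference of 1.72 ± 0.88 had an adjusted p of 0.604. Without HDM rats 1 and 2, a setting chosen after seeing the data, it was 0.49 ± 0.17, with an adjusted p of 0.618.

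Col11a1, which forms cartilage fibrils together with type II collagen, was at -4.65, -4.20, -7.19, -6.15 and -5.45 in HDM rats and at -6.11, -6.09 and -6.29 in control rats. It was well above background in 3 of the 8 lungs and in no control lung, so no fold is given, and the adjusted p was 0.888. Without HDM rats 1 and 2 its log2 difference changed from 0.63 to -0.10. Col11a2 was at -1.90, -1.25, -2.13, -2.09 and -2.28 in HDM rats and at -2.05, -1.64 and -1.99 in control rats, so that control rat 2 lay above HDM rat 1. Its difference was -0.04 ± 0.24, and its other probe was lowest in HDM rat 2. Col9a1, a chain of the type IX collagen that coats cartilage fibrils, was measured by a pair of probes. The brighter one was at -5.26, -5.16, -5.76, -6.04 and -6.41 in HDM rats and at -6.41, -7.73 and -7.47 in control rats. It was well above background in 1 of the 8 lungs and in no control lung, so no fold is given, and the adjusted p was 0.174. The other probe was at -4.10 and -4.00 in HDM rats 1 and 2 and at or below -6.67 in the remaining lungs. Both probes were thus highest in the same pair of lungs.

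Col9a2, another type IX chain, was at -0.81 and -0.73 in HDM rats 1 and 2, and between -1.77 and -1.09 in the other lungs. Of the 8 cartilage markers measured, Cnmd, the gene of chondromodulin, was at -1.24 and -0.83 in HDM rats 1 and 2 and at or below -4.28 in the other 6 lungs. Comp, a matrix protein of cartilage, was at -1.54 and -1.20 in these lungs and at or below -3.53 in the others. Hapln1 and Matn1, further cartilage matrix genes, were also highest in these 2 lungs. The summed cartilage markers were at 1.69 and 1.92 in HDM rats 1 and 2 and between 0.43 and 1.33 in the other lungs. Sox9, which cartilage shares with airway epithelium, did not follow them, being at -0.85 and -1.37 in these lungs and between -1.12 and -0.66 in the others. Snorc was not well above background in any lung. The other measured markers are not given by rat here. The sum, which in control rat 3 was 1.33, therefore cannot be traced to the named genes alone. The part of cartilage in the collagen values was not tested. The plot of lung values by rat shows these genes beside the interstitial collagens, and both gene sets in it were put together after their values were seen.

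**Figure D2:**
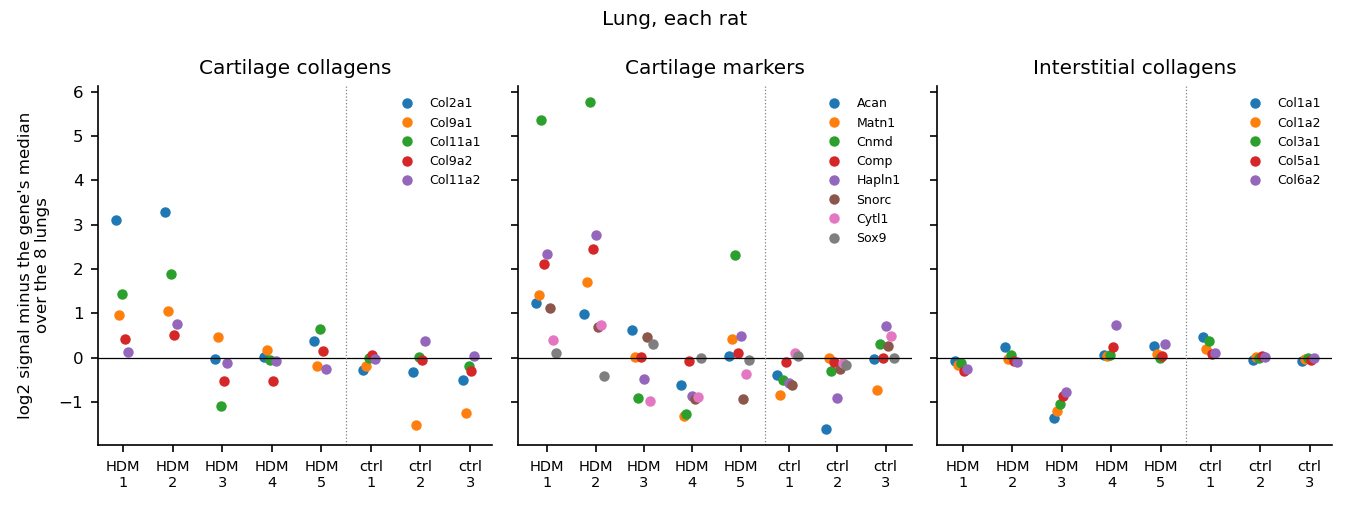
Log2 signal of each gene minus its median over the 8 lungs (vertical axis), for each HDM and control (ctrl) rat (horizontal axis). Each point is 1 gene in 1 lung. Col2a1, Col9a1, Col9a2 and Col11a1 and the markers Acan, Matn1, Cnmd, Comp and Hapln1 lie highest in HDM rats 1 and 2, Col11a2 and Sox9 do not follow them, and the interstitial collagens lie lowest in HDM rat 3.

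The remaining collagens of the lung changed little between the groups. Col16a1, a fibril-associated collagen, was at 3.16, 3.34, 3.02, 3.45 and 3.34 in HDM rats and at 3.48, 3.61 and 3.37 in control rats, and differed by -0.22 ± 0.13, with an adjusted p of 0.679. Col6a2, a chain of the beaded filaments of type VI collagen, differed by -0.05 ± 0.31. Col13a1, a transmembrane collagen, was at 3.61, 3.35, 3.99 and 3.56 in 4 HDM rats and at 3.49, 3.71 and 3.57 in control rats. Its spot was an outlier in HDM rat 2, so that the fit used 7 lungs. The other members of this class, besides Col9a1, differed by between -0.22 and 0.19 and overlapped between the groups. With slide row as a block, which leaves HDM rat 5 against the 3 control rats, the median difference of the members was 0.18, and Col1a1 differed by 0.14 ± 0.60.

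Genes that make, modify and break down collagen were read by lists. Of 19 measured genes of collagen synthesis and processing, 2 were downregulated in the lungs of HDM rats, against 0.492% of all genes, and none was upregulated. P4ha1, an alpha subunit of the prolyl 4-hydroxylase that stabilizes the collagen helix, was at 1.70, 1.75, 1.75, 1.62 and 1.56 in HDM rats and at 2.75, 2.82 and 2.42 in control rats. The HDM rats lay close together and all below the control rats. The log2 difference was -0.98 ± 0.12, with an adjusted p of 0.0147.

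P4ha2, the gene of another alpha subunit of this enzyme, was at 1.34, 1.46, 1.23, 1.89 and 1.58 in HDM rats and at 2.43, 2.45 and 2.57 in control rats, without overlap. It differed by -0.98 ± 0.16, with an adjusted p of 0.0399. The P4ha1 call was lost without HDM rat 1, control rat 1 or control rat 2 (adjusted p of 0.0535, 0.0852 and 0.0926). The P4ha2 call was lost when any rat other than HDM rat 4 was left out (adjusted p between 0.0573 and 0.166). With single rats left out, both differences stayed between -1.11 and -0.91. Plod2, a lysyl hydroxylase that prepares collagen for cross-linking, and Serpinh1, the collagen chaperone HSP47, were lower in all HDM rats without passing the test, by -0.52 (adjusted p of 0.134) and -0.46 (adjusted p of 0.301). Of the 19 genes, 4 had all HDM rats below all control rats, against 7.27% of all genes.

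Of 14 genes of TGF-beta signaling and fibrosis, 1 was downregulated in lung, against 0.492% of all genes. Ccn2, a matricellular growth factor induced by TGF-beta, was at 2.58, 2.69, 2.68, 2.92 and 3.17 in HDM rats and at 4.39, 4.43 and 4.15 in control rats. All HDM rats lay below all control rats, by -1.51 ± 0.16, with an adjusted p of 0.00706. The call was lost without control rat 1 or control rat 2 (adjusted p of 0.0501 and 0.0542). With slide row as a block, the calls of Ccn2, P4ha1 and P4ha2 were lost (adjusted p of 0.221, 0.243 and 0.52). Tgfb3, a TGF-beta ligand, was lower in all HDM rats at an adjusted p of 0.173. All HDM rats were below all control rats for 2 of the 14 genes, against 7.27% of all genes.

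Of 11 genes of collagen degradation, 2 were upregulated in lung, against 0.63% of all genes, and none was downregulated. Another 2 of the 11 were not called but lay lower in all HDM rats than in all control rats, as in 7.27% of all genes. The summed signal of the list ran from 6.91 to 7.01 in HDM lungs and from 7.04 to 7.12 in control lungs. Mmp8, the neutrophil collagenase, was between -1.14 and 0.02 in HDM rats and between -4.58 and -4.33 in control rats, a difference of 3.95 ± 0.25 (adjusted p of 0.000638). Mmp9, a gelatinase, was between -1.66 and -0.85 in HDM rats and between -4.71 and -4.33 in control rats, a difference of 3.23 ± 0.21 (adjusted p of 0.000736). With slide row as a block, Mmp9 differed by 2.83 and its call was lost (adjusted p of 0.0539), and Mmp8 differed by 3.31 (adjusted p of 0.0235). Both are also among the 7 neutrophil markers. The summed neutrophil markers, which include both genes, ran from 6.94 to 8.07 in HDM lungs and from 3.02 to 3.37 in control lungs. None of the 7 collagen receptors, 5 cross-linking enzymes, 9 small leucine-rich proteoglycans and 11 basement membrane genes other than collagens passed the test. Without being called, 2 of the receptors, 1 of the proteoglycans and 2 of the basement membrane genes lay lower in all HDM rats, against 7.27% of all genes. No cross-linking enzyme did. All 7 lists were chosen with earlier results of these data known.

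**Figure D3:**
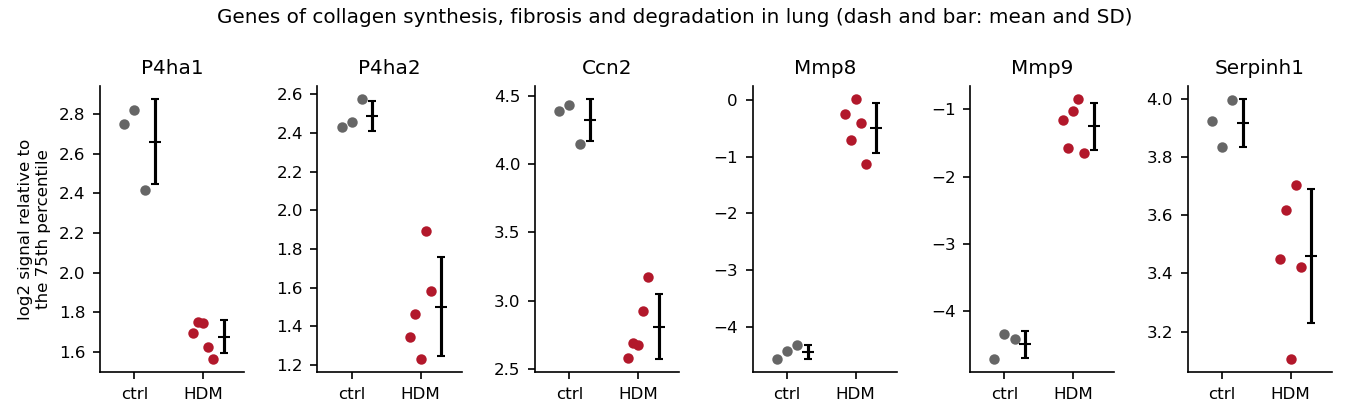
Log2 signal relative to the 75th percentile of the array (vertical axis, with its own scale in each panel) in the lungs of 3 control (ctrl) and 5 HDM rats. Points are rats, and the dash with its bar gives the mean and SD. P4ha1, P4ha2, Ccn2 and Serpinh1 were lower in all HDM rats than in all control rats, as in 7.27% of all genes. Mmp8 and Mmp9 were higher, as in 5.94% of all genes.

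The same question was asked of adipose tissue. None of the 23 collagen genes was differentially expressed there, and neither was any other of the 16678 genes, so the share of called genes was 0.0%. At an unadjusted p below 0.05 there were 2 members, Col23a1 and Col11a2, against 7.94% of all genes. The median log2 difference was -0.13 over the members, -0.05 over all genes, -0.15 for fibrillar, 0.14 for basement membrane and -0.16 for other collagens. The difference was below 0 for 14 of the 23 members, against 56.0% of all genes. With the median of the array in place of its 75th percentile, the median of all genes moved from -0.05 to 0.24 and that of the members from -0.13 to 0.17.

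Col23a1, a transmembrane collagen, was at -3.75, -4.70, -4.34, -3.95 and -4.85 in HDM rats and at -3.34, -3.65 and -3.34 in control rats. It was the only member whose groups did not overlap, with all HDM rats lower, as in 3.52% of all genes. Its difference was -0.88 ± 0.28, with an adjusted p of 0.402. The probe was well above background in 3 of 5 HDM rats and in all control rats, and the difference ran from -1.41 to -0.04 over the alternatives. A further Col23a1 probe was lower by -1.52 but was not well above background in any HDM rat. Col11a2, the partner of Col11a1 in type XI collagen, was at -2.92, -4.11, -3.24, -3.34 and -3.30 in HDM rats and at -2.57, -2.95 and -2.62 in control rats. It overlapped between the groups and differed by -0.67 ± 0.27, with an adjusted p of 0.478.

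The major fibrillar collagens varied between rats more than between groups. Col1a1 was at 5.18, 5.64, 6.43, 6.81 and 6.69 in HDM rats and at 5.53, 6.65 and 6.09 in control rats. Col3a1 was at 6.15, 6.94, 7.03, 7.81 and 7.47 in HDM rats and at 6.99, 7.44 and 7.33 in control rats. HDM rat 1 was lowest for both, and HDM rat 4 was highest. The differences between the groups were 0.06 ± 0.44 for Col1a1, -0.17 ± 0.36 for Col3a1 and -0.13 ± 0.40 for Col1a2, with adjusted p between 0.874 and 0.967. Col5a1 was at 2.94 in HDM rat 1 and at 2.50 in control rat 1, and between 3.82 and 4.39 in the other 6 rats.

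HDM rat 1 and control rat 1 were the rats with high epididymis and testis markers. Relative to the median over the 8 rats, 5 interstitial collagens (Col1a1, Col1a2, Col3a1, Col5a1 and Col6a2, put together after their values were seen) had a median of -1.08 in HDM rat 1 and of -0.73 in control rat 1, against between -0.42 and 0.46 in the other rats. Their fibroblast markers summed to 6.73 and 6.83, against between 7.45 and 8.05 in the others. Col7a1 ran the other way, being at -1.27 in HDM rat 1 and at -1.13 in control rat 1 and between -3.67 and -2.63 in the other 6 rats. Without both rats the differences were 0.02 for Col1a1, -0.15 for Col1a2 and -0.07 for Col3a1. The part of these markers' source in the collagen values was not tested.

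**Figure D4:**
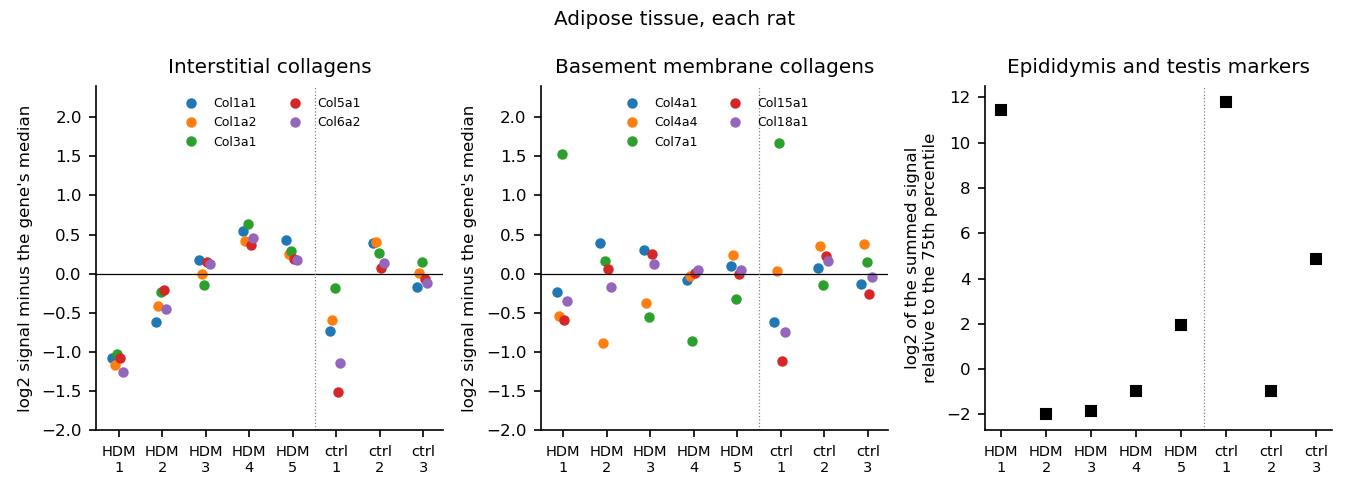
Adipose tissue of each HDM and control (ctrl) rat (horizontal axis). The left and middle panels give the log2 signal of each collagen gene minus its median over the 8 rats, and the right panel gives the log2 of the summed epididymis and testis markers. HDM rat 1 and control rat 1, with the highest marker sums, have the lowest interstitial collagens and the highest Col7a1.

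Other members of adipose tissue overlapped between the groups. Col5a3 was at 4.74, 5.74, 5.55, 5.14 and 5.29 in HDM rats and at 3.66, 5.18 and 5.03 in control rats, so control rat 1 was lowest. Its difference of 0.67 ± 0.39 (adjusted p of 0.628) was 0.33 without HDM rat 1 and control rat 1. Col4a1 was between 5.21 and 5.84 in HDM rats and between 4.83 and 5.52 in control rats, and differed by 0.32 ± 0.23 (adjusted p of 0.711). Col4a4 differed by -0.57 ± 0.27 (adjusted p of 0.542), Col15a1 by 0.33 ± 0.32 and Col18a1 by 0.14 ± 0.24. Of the type VI chains, Col6a2 differed by 0.18 ± 0.45, and Col6a5 spread over an 11.2-fold range between rats with a difference of -0.03 ± 0.74.

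Col11a1 and Col11a2 were well above background in 7 of 8 adipose samples, and the other cartilage collagens in at most 3. Col2a1 was well above background in 2 of 8 rats and differed by -0.71 ± 0.50 (adjusted p of 0.711), Col11a1 differed by -0.95 ± 0.72 (adjusted p of 0.734), and Col9a2 was below the well-above-background mark on all arrays. HDM rats 1 and 2, in whose lungs Col2a1 was high, had adipose values of -4.04 and -5.24, within the range of the other rats. Col26a1 was well above background in 3 of 8 rats and differed by -0.60 ± 0.46 (adjusted p of 0.737). None of the genes of the 7 lists was differentially expressed in adipose tissue. There P4ha1 was at 1.71, 2.88, 2.74, 3.25 and 3.11 in HDM rats and at 2.23, 2.96 and 3.21 in control rats, and HDM rat 1 and control rat 1 were again the lowest.

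Whether the lung and adipose changes differed was tested on the difference between the 2 tissues of each rat. Lung and adipose samples with the same group and number were taken as 1 rat. No member passed the test (limma), and 0.0% of all genes did. At an unadjusted p below 0.05 there were 2 members, against 7.06% of all genes. These were Col2a1, with a lung change 2.43 ± 0.96 above the adipose change (adjusted p of 0.617), and Col11a2, with 0.68 ± 0.24 (adjusted p of 0.572). The Col11a2 value is from the probe brighter over all arrays, which is not the probe of its lung values above. For Col1a1 the changes differed by -0.26 ± 0.65 and for Col3a1 by -0.16 ± 0.44.

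The tissues themselves differed for most collagens. Of the 23 members, 15 were higher in adipose tissue, against 34.1% of all genes, and 4 were higher in lung, against 18.8% of all genes (limma on the 8 rats, each rat's lung minus its adipose tissue). For 3 of these genes, Col11a2, Col26a1 and Col23a1, a further probe was called in the opposite direction, and without them 13 were higher in adipose tissue and 3 in lung. The median log2 difference, lung minus adipose, was -1.74 over the members and -0.28 over all genes. Fibrillar collagens had a median of -2.58, basement membrane collagens of -1.74 and the others of -0.49. The scale shifts with the normalization: when the 75th percentile was taken only over well-above-background probes, the median of all genes was 0.41 and that of the members -1.05.

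Of the fibrillar members, 6 of 8 were higher in adipose tissue, Col11a2 being left out for the opposite direction of its probes. Col5a3 had the largest difference of all members in this direction, being from -1.80 to -0.81 in lung and from 3.66 to 5.74 in adipose tissue. The difference of -6.34 ± 0.22 was an 81.1-fold higher signal in adipose tissue, seen in 8 of 8 rats (adjusted p of 6.05e-07). Col3a1 was from 3.39 to 4.82 in lung and from 6.15 to 7.81 in adipose tissue, a difference of -2.77 ± 0.22. The ranges of both genes were apart. Col5a1 differed by -2.67 ± 0.25, Col1a1 by -2.48 ± 0.33 and Col1a2 by -1.74 ± 0.25, with adjusted p between 6.80e-05 and 0.000566.

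Col11a1 was between -7.19 and -4.20 in lung, where it was well above background in 3 of 8 rats, and between -5.18 and -1.61 in adipose tissue, a difference of -3.11 ± 0.59 (adjusted p of 0.00223). Col11a2 was lower in lung by -0.93 ± 0.12 with the probe that is brighter over all arrays, while its other probe was higher in lung and not well above background in any adipose array. No direction is therefore given for Col11a2. Col2a1 was the fibrillar member that did not pass, with a difference of 0.36 ± 0.48 (adjusted p of 0.522).

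The basement membrane collagens split. Col15a1 was from 1.21 to 2.70 in lung and from 5.03 to 6.39 in adipose tissue, a 12.5-fold higher signal in adipose tissue (-3.65 ± 0.25). Col18a1, the source of endostatin, was from -0.38 to 0.77 in lung and from 2.75 to 3.66 in adipose tissue, a difference of -2.84 ± 0.19. Col4a1 was lower in lung by -1.74 ± 0.26. Col4a4 went the other way, being from 0.12 to 0.83 in lung and from -3.77 to -2.50 in adipose tissue, a 10.2-fold higher signal in lung (3.35 ± 0.18, adjusted p of 4.23e-06). These 4 genes had the same direction in 8 of 8 rats. Col7a1 did not pass, at 0.48 ± 0.36. It was called when HDM rat 1 and control rat 1, with the highest adipose Col7a1, were left out.

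Among the other collagens, Col13a1 was from 3.35 to 3.99 in lung and from -6.13 to -0.93 in adipose tissue, where it was well above background in 4 of 8 rats. The difference of 7.61 ± 0.67 (adjusted p of 9.79e-05) had the same direction in 7 of 7 rats with both values. It ran from 5.15 to 8.46 over the alternatives, and no fold is given because of the adipose values near background. Col9a2 was between -1.77 and -0.73 in lung and not well above background in adipose tissue, at least 12.4-fold higher in lung (adjusted p of 1.55e-06). This bound holds for the main processing only, and the log2 difference of Col9a2 ran from 1.62 to 5.48 over the alternatives. Col14a1, a fibril-associated collagen, was lower in lung by -2.04 ± 0.24 and Col6a2 by -1.99 ± 0.24, with adjusted p between 0.000167 and 0.000189. Col6a5 differed by -1.57 ± 0.37. Col9a1 differed by -2.40 ± 0.27 with a probe well above background in 1 lung and 3 adipose samples, and its other probe did not pass, at -0.85 ± 0.41 (adjusted p of 0.102).

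Col23a1 was higher in lung by 0.73 ± 0.19 and Col26a1 lower by -0.74 ± 0.27 (adjusted p of 0.0113 and 0.0429), but each has a further probe with a called difference in the opposite direction, of -1.13 for Col23a1 and 1.15 for Col26a1. No direction is therefore given for these genes. Col16a1 and Col8a1, a network collagen of vessel walls, did not pass, at -0.25 ± 0.13 and 0.15 ± 0.19. The plot of both tissues shows all members.

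**Figure D5:**
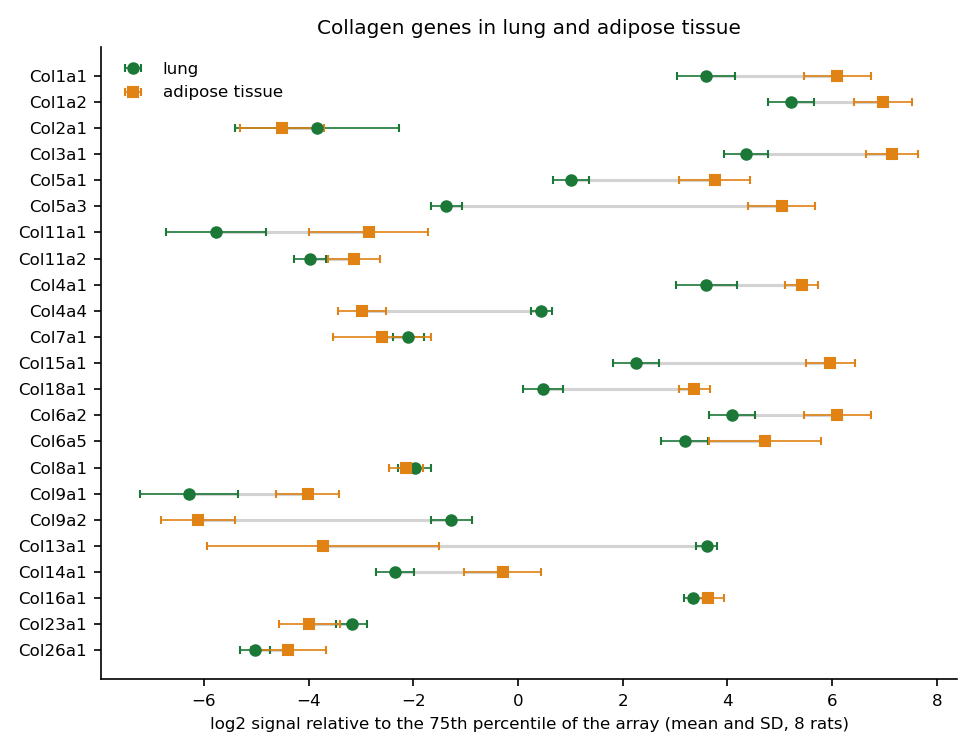
Mean log2 signal relative to the 75th percentile of the array (horizontal axis) of each collagen gene in lung (circles) and adipose tissue (squares) over 8 rats, with the SD as bars and a line joining both tissues. Each gene has its own probe, so only the points of 1 gene are compared. Col5a3 and Col15a1 lie far higher in adipose tissue, and Col13a1, Col9a2 and Col4a4 far higher in lung.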

How the data were processed

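The authors deposited for each of the 16 arrays the spot intensity on a linear scale, background-subtracted by Agilent Feature Extraction 12.0.3.1 on a 1-colour (Cy3) design, with flags that mark outliers and spots well above background. A log2 table that the authors made in GeneSpring GX was deposited too. Its values lay within 0.1 of scanner values shifted to the 75th percentile and centered by probe in 99.8% of the cells or more, and 39 of its cells hold dates and were left out.

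Control probes and outlier spots were left out, spots of a probe were averaged as log2 intensity, and the 75th percentile of each array was subtracted. HDM and control rats were compared in each tissue with limma 3.58.1 (lmFit, eBayes, R 4.3.3) over 45598 probes, with Benjamini-Hochberg adjustment. Differential expression meant an adjusted p below 0.05 and a fold change above 1.5. Tissues were compared through the lung minus adipose difference of each rat, as the mean of the HDM and control means. Which lung and adipose samples belong to 1 rat was read from their shared group and number. The deviations of these samples from their group means correlated at -0.10 to 0.11 between the tissues. The code was tested on simulated data. Probes were named through RefSeq accessions (GRCr8 gene table of 47357 genes, 21229 probes named). A probe not well above background on any array of a group gives a bound, taken from the lowest signal well above background.

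Named genes are members called in a comparison, the 8 smallest p-values per tissue, the major collagens and the 5 largest tissue differences in each direction. Other members, such as Col8a1 in both tissues and Col13a1 in the HDM comparison, were added after their values were seen. Members, classes and lists were chosen with earlier results of these data known. Rats of a group are separate animals, and their number limits the precision. Alternatives were the methods' t-test, other adjustments, normalizations and backgrounds, the deposited table, a filter on dim probes, array weights, slide row or replicate number as a block, a joint fit, and leaving out rats. Plots used matplotlib 3.10.9 (Python 3.11.15).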

Additional observations from a re-analysis of the deposited data

Results flagged for a closer look

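In the lungs of the 5 HDM rats, HDM rat 3 lay apart from the others for the chains of the major fibrillar collagens. It was at 2.30 for Col1a1, with a gap to the nearest HDM rat of 0.799 of the whole range of the group. It was at 4.14 for Col1a2, with a gap of 0.809 of the range, and at 3.39 for Col3a1, with a gap of 0.825. The limit for 5 samples is 0.71. Chance flags about 1 in 20 groups, and 3 of the 46 groups of HDM rats (23 members in each tissue) were flagged. These flags came from the same lung and are not independent of each other. All 3 probes were well above background in all 8 lungs.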

How the results depend on the processing

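No collagen gene was called between HDM and control rats under any alternative in either tissue, with 1 exception: Col9a1 was called in lung (1 gene) when the adjustment covered only probes past 1.5-fold. The median difference of the members in lung, -0.17, was 0.18 with slide row as a block and between -0.23 and 0.01 with single rats left out. In adipose tissue it was -0.13, against 0.17 with median scaling and between -0.28 and 0.12 with single rats left out, the highest without HDM rat 1. The cause was not tested. Differences that were not called changed sign in 18 of 335 values over 14 members in lung and in 22 of 359 values over 15 members in adipose tissue. For lung against adipose tissue, signs were followed for 9 members (162 values), and none changed. The signs of the other members called there were not followed. Between tissues, from 15 to 19 members were called, and the median of -1.74 was -1.05 when the 75th percentile covered only well-above-background probes and -0.75 with normexp and quantile normalization. Col23a1 was not called between tissues with normexp and quantile normalization or in control rats alone. Col26a1 lost its call in most alternatives. With scaling to Gapdh and Hprt1, or with the percentile over well-above-background probes, Col11a2 and Col6a5 were not called. Normexp and quantile normalization also removed the calls of Col11a2 and Col9a1. Col7a1 and Col8a1 were called with the percentile over well-above-background probes, and Col2a1 in control rats alone. Without HDM rat 1 and control rat 1, Col7a1 was called too.

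In lung, P4ha1 kept its call in 17 of 24 alternatives, P4ha2 in 10, Ccn2 in 19, Mmp8 in 23 and Mmp9 in 22, all with the same direction. With the row block their adjusted p was 0.243, 0.52, 0.221, 0.0235 and 0.0539. HDM and control rats share replicate numbers but are different animals, so an HDM rat and a control rat of 1 number were not taken as a pair. The deviations of same-numbered rats correlated at -0.08 to 0.05 in lung and at 0.59, 0.14 and 0.10 in adipose tissue. The value of 0.59 was that of HDM rat 1 and control rat 1, the rats with high epididymis and testis markers. With the replicate block, 0 members were called, the median difference was -0.33 in lung, -0.18 in adipose tissue and 0.05 for the difference between the tissue changes, and none of these 5 genes was called. Signal over background limits Col9a1, Col11a1, Col2a1 in adipose tissue and Col9a2.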
